A study of Mus musculus with 11 samples.

Results

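Hmox1, the gene of inducible haem oxygenase, was followed together with 9 genes of the antioxidant response in the heart RNA of 11 male mice. The 10 genes (Hmox1, Nfe2l2, Nqo1, Gclc, Gclm, Txnrd1, Srxn1, Sod2, Cat and Bach1) were taken by gene identifier from a table of 22608 genes, and all 10 were among the 11319 genes that passed the filter on low counts. The set was chosen by the Hmox1 counts of the CD VEH mice, of which 1 stood far above the rest. Hmox1 values in comparisons that involve CD VEH are therefore given as a description, without a test. The mice were 8 to 16 weeks old and on a C57BL/6J background. CD mice carry a hemizygous deletion on chromosome 5 from Gtf2i to Fkbp6, the mouse counterpart of the deletion of Williams-Beuren syndrome, and WT mice were their littermates. Each mouse was injected daily for 10 days, either with JZL184 at 8 mg/kg or with the vehicle (VEH) of DMSO, PEG400, Tween-80 and saline. The controls are called vehicle in the sample titles but untreated in the treatment field. JZL184 inhibits monoacylglycerol lipase, the enzyme that breaks down the endocannabinoid 2-arachidonoylglycerol. The groups were WT VEH with 2 mice, WT JZL184 with 3, CD VEH with 3 and CD JZL184 with 3, and each mouse is named here by the letter its column carries.

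Haem oxygenase opens the haem ring and releases carbon monoxide, iron and biliverdin. Its gene is among the targets of NRF2, the factor made by Nfe2l2, which enters the nucleus when oxidants or electrophiles stop its destruction and then binds antioxidant response elements (ARE). BACH1, a repressor that is removed by haem, sits on many of the same elements and restrains Hmox1 above all. Other NRF2 targets are Nqo1 (quinone reduction), Gclc and Gclm (the catalytic and modifier subunits of glutathione synthesis), Txnrd1 (thioredoxin reduction) and Srxn1 (repair of over-oxidized peroxiredoxins). Sod2 and Cat make the mitochondrial superoxide dismutase and catalase, which remove superoxide and hydrogen peroxide. In most tissues Hmox1 is strong in the macrophages that take up old red cells.

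The 11 libraries held between 69660232 and 92251443 estimated counts, of which 36.4% to 46.6% fell on mitochondrial genes. This share was 39.4% to 41.2% in WT VEH, 45.0% to 46.6% in WT JZL184, 43.5% to 44.7% in CD VEH and 36.4% to 40.1% in CD JZL184, so all WT JZL184 and CD VEH hearts lay above all others. Of the 21 listed genes of the deleted interval, 14 passed the filter, and in all 14 every CD heart lay below every WT heart, with a median CD to WT ratio of 0.519. Cardiomyocyte markers were abundant in every library (summed level 27742 to 38665 CPM, that is, counts brought to a common library size), as the label heart requires. Haemoglobin and other red cell transcripts set 1 library apart: their summed level was 18841 CPM in CD VEH mouse A and at most 5513 CPM in any other mouse. No label says whether hearts were perfused. The p-values below measure the spread between mice, with 2 mice in WT VEH.

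The start regions of the members hold the letters of an ARE unevenly, and they are shown because these letters are what NRF2 and BACH1 read. RefSeq start windows of GRCm38.p6, 250 bases before and 50 after a start, were at hand for 8 of the 10 members. Hmox1 and Gclc had none. The core TGACNNNGC was searched on both strands and lay in the windows of 4 of these 8 genes, against 14.0% of all genes with a window. In the lines below the capitals mark the match on the gene's own strand, written 5′ to 3′. In Srxn1, Gclm and Txnrd1 the core lies on the opposite strand, so its reverse complement is shown.
Nfe2l2 (minus strand), chr2:75704887-75704911: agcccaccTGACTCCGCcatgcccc
Srxn1 (plus strand), chr2:152105544-152105568: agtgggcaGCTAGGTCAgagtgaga
Gclm (plus strand), chr3:122245415-122245439: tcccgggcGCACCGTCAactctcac
Txnrd1 (plus strand), chr10:82859106-82859130: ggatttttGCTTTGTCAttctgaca
The Txnrd1 match lies in 1 of its 3 windows. Srxn1 further holds the letters TGAGTCA, the site of the AP-1 factors, at 2 places, both before its start. Of all genes, 5.95% hold these letters at least once.
Srxn1, chr2:152105414-152105436: ggagggccTGAGTCAccacgctg
Srxn1, chr2:152105471-152105493: attcacccTGAGTCAgcggccgg
Nqo1, Sod2, Cat and Bach1 had none of these letters in their windows, which says nothing of elements farther away. A match is a match of letters and not a bound site.

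Hmox1 (ENSMUSG00000005413, chromosome 8, 75093621 to 75100589, plus strand, GRCm38) was the most variable of the 10 members. Its level was 32.4 CPM in CD VEH mouse E, against 9.07 CPM in CD VEH mouse A and 8.38 CPM in CD VEH mouse C. In the WT JZL184 hearts it was 6.77 CPM in mouse A, 15.7 CPM in mouse B and 8.67 CPM in mouse D. It was 4.63 and 5.40 CPM in the WT VEH hearts and 5.06, 6.19 and 4.54 CPM in the CD JZL184 hearts. Mouse E thus stood highest of the 11, mouse B of WT JZL184 came next, and all 5 WT VEH and CD JZL184 hearts lay below all 6 others, as they did for 14.4% of all tested genes. Over the 11 hearts the coefficient of variation of Hmox1 was 84.2%, and that of the other 9 members ran from 6.35% for Nfe2l2 to 15.7% for Srxn1.

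The size of the Hmox1 difference in each comparison with CD VEH depended on that 1 mouse. Between CD VEH and WT VEH hearts its log2 fold change was 1.73 with all mice and 0.79 without mouse E. Between CD JZL184 and CD VEH hearts it was -1.66 with all mice and -0.72 without mouse E. The comparisons that leave CD VEH aside were tested with the quasi-likelihood test of edgeR, adjusted over all 11319 genes by Benjamini-Hochberg. Their estimate of the spread comes from all 11 mice, so it still holds the CD VEH values by which Hmox1 was chosen, mouse E among them. WT JZL184 hearts were higher than WT VEH hearts by a log2 fold change of 1.04 (SE 0.54), which missed the threshold of 0.05 (adjusted p = 0.162, and 0.058, with these groups fitted alone, to 0.438 over 12 alternatives). Leaving out WT JZL184 mouse B moved it to 0.62. CD JZL184 hearts were lower than WT JZL184 hearts, with a log2 fold change of -0.98 (SE 0.47), and this missed it too (adjusted p = 0.118, and 0.0321 to 0.406 over 13 alternatives). It passed when the 2 groups were fitted alone (adjusted p = 0.0321). Without WT JZL184 mouse B this value was -0.55.

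**Figure D1:**
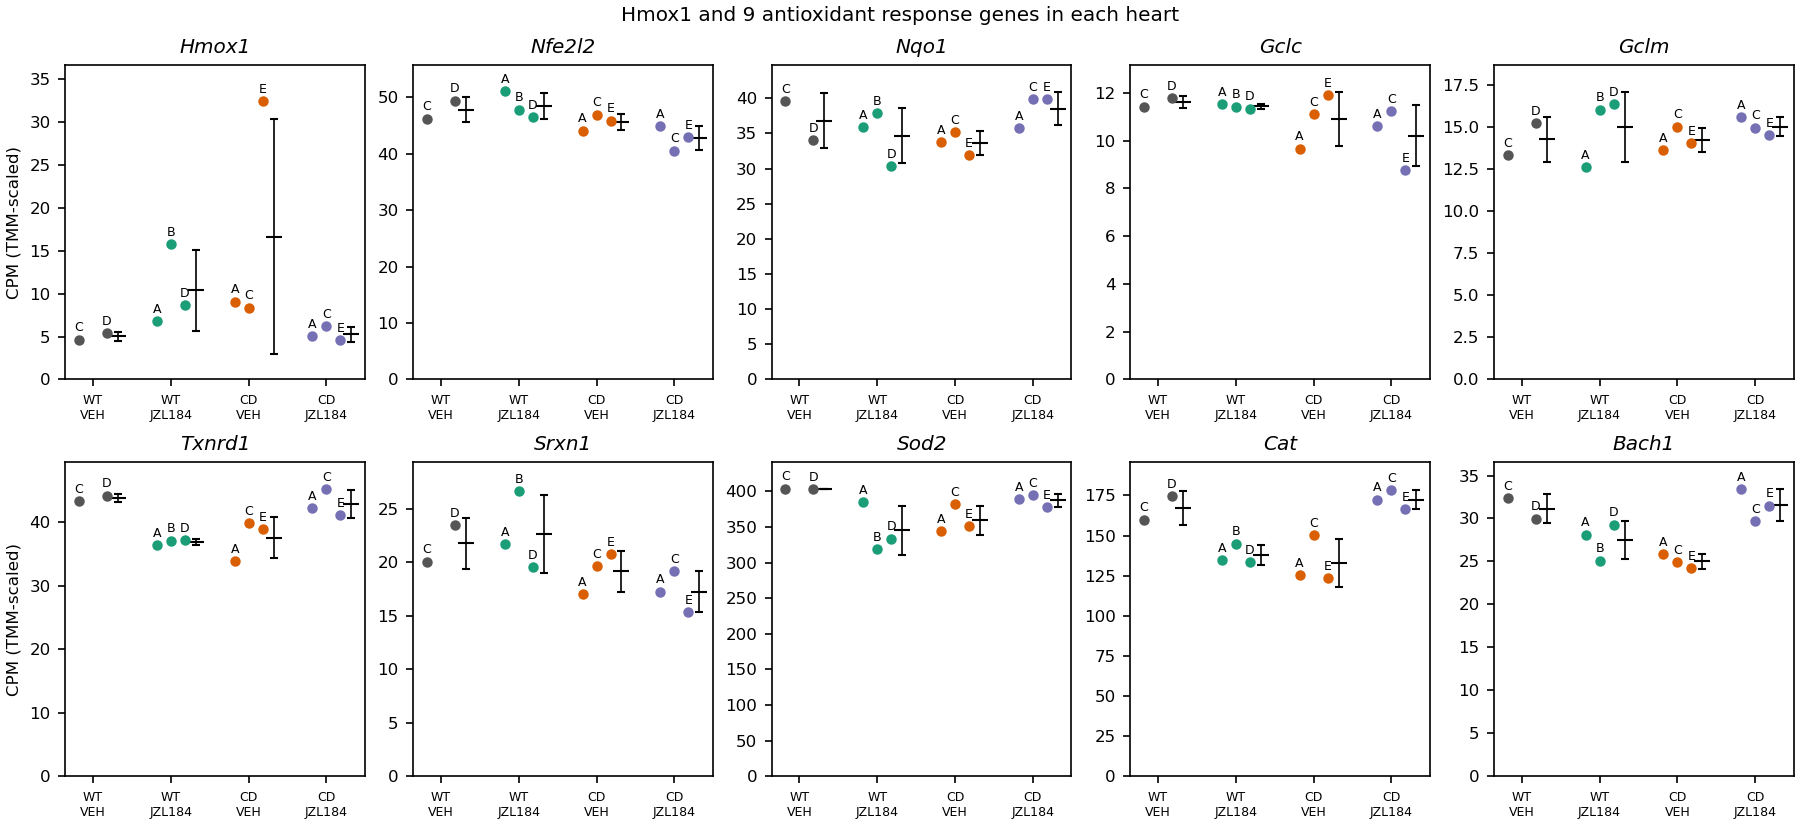
Level of each of the 10 members in each heart, in CPM after TMM scaling (vertical axis, from 0), with 1 point per mouse, the mouse's letter above it, and the group mean ± SD in black (n = 2 for WT VEH, 3 for the other groups). Mouse E of CD VEH stands apart in the Hmox1 panel at 32.4 CPM, while in the panel of Bach1 the 3 CD VEH hearts, between 24.2 and 25.9 CPM, lie below every WT VEH and every CD JZL184 heart.

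No other member was raised in mouse E to the extent of Hmox1. Against the mean of the other CD VEH mice, its Hmox1 was 3.72 times as high, rank 1 of the 11319 genes by this ratio and the only one above 3. For the other 9 members the ratio lay between 0.896 (Cat) and 1.14 (Gclc). Of all tested genes, 92.8% had a lower ratio than Gclc, 91.6% than Srxn1, 75.2% than Txnrd1 and 54.1% than Nfe2l2. For the rest this share ran from 11.8% (Cat) to 40.0% (Gclm). Among the NRF2 targets, Gclc of mouse E was the highest of the 11 hearts at 11.9 CPM, but the next heart, WT VEH mouse D, had 11.8 CPM. In the order from the highest heart down, Srxn1 of mouse E took place 4 at 20.7 CPM, Txnrd1 place 7 at 38.9 CPM, Gclm place 8 at 14.1 CPM and Nqo1 place 10 at 31.9 CPM. Nfe2l2 took place 7 at 45.9 CPM and Sod2 place 8 at 352 CPM. Cat (124 CPM) and Bach1 (24.2 CPM) of mouse E were the lowest of all 11 hearts. Mouse E was the highest heart in 2 of the 10 members, Hmox1 and Gclc, and in 8.14% of all tested genes. With library totals in place of TMM scaling, Hmox1 alone was left.

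The wider antioxidant set gave the same picture. Of 104 further genes of haem handling, NRF2 control, glutathione and thioredoxin systems, metal detoxification, NADPH supply and oxidant production, 99 passed the filter. Their ratio of mouse E to the mean of the other CD VEH mice ran from 0.734 (Gstt2, a glutathione transferase) to 1.27 (Tfrc, the transferrin receptor), and 0 of the 99 exceeded 1.5. Its median was 0.995, beside 0.9997 over all tested genes. Mouse E was the highest heart in 10 of the 99 (10.1%, Prdx1 and Txn2 among them), whereas mouse B of WT JZL184, the second highest in Hmox1, was the highest in 29 (29.3%), beside 19.8% of all tested genes. Blvra and Blvrb, the biliverdin reductases that act after haem oxygenase, stood at 10.4 and 8.97 CPM in mouse E. In the same group they stood at 10.5 and 10.2 CPM in mouse A and at 9.63 and 8.09 CPM in mouse C. Ftl1, the ferritin light chain that stores the released iron, was 291 CPM in mouse E, 301 CPM in mouse A and 255 CPM in CD VEH mouse C. The metallothionein Mt1 was 64.9 CPM in mouse E, the lowest of the 3 CD VEH hearts.

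**Figure D2:**
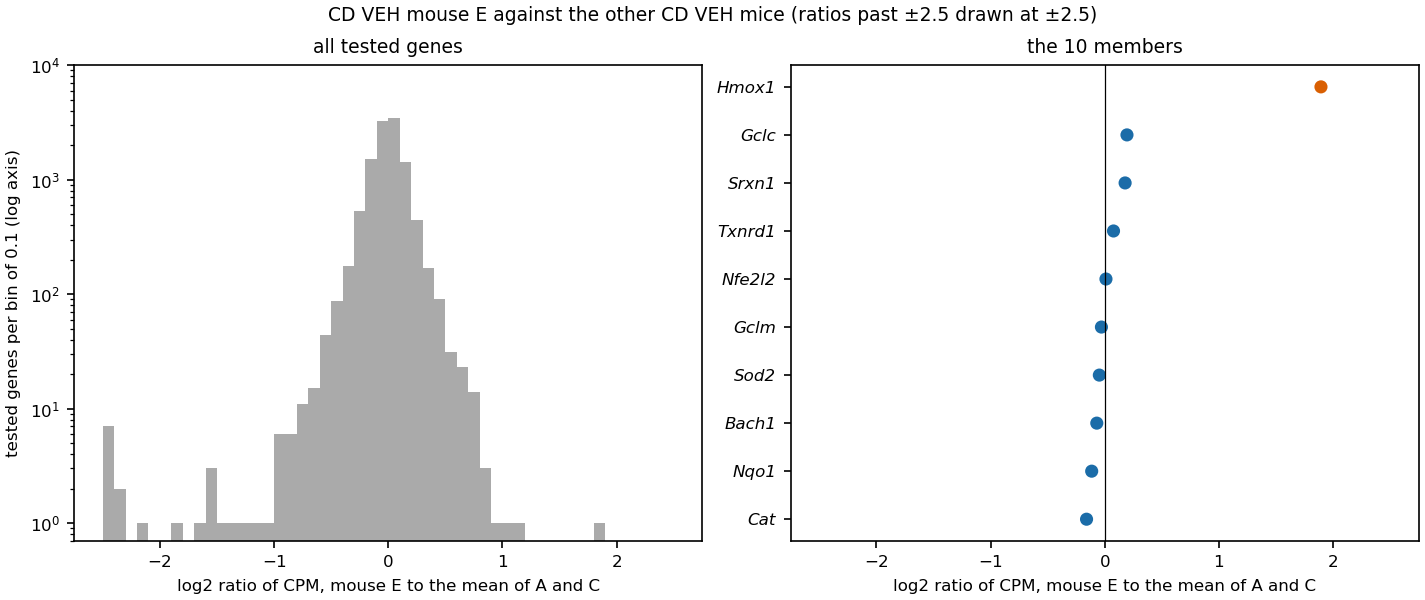
Left, number of tested genes (log axis) by the log2 ratio of CPM in CD VEH mouse E to the mean of CD VEH mice A and C. Right, the same ratio for each of the 10 members. Hmox1 lies at 1.89, to the right of every other gene, and the other members lie between -0.16 and 0.19.

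The genes that did stand out in mouse E were few. By the ratio to the highest of the other 10 hearts, Hmox1 led with 2.06. It was followed by Olfml2b (1.40), Socs2 (1.35), Tppp3 (1.35), Spon2 (1.34), Tubb2b (1.34), Crem (1.32), Cebpb (1.31), Hacd1 (1.30) and Frem2 (1.27). Socs2 is a feedback inhibitor of cytokine and growth hormone receptors, and Crem and Cebpb are transcription factors that respond to cAMP and to inflammatory signals. Against the other CD VEH mice alone, 3 genes were more than 2 times as high, namely Hmox1, Cish (2.23, another cytokine feedback inhibitor) and Nppa (2.08, atrial natriuretic peptide). Over all 11 hearts mouse E was not the highest in Cish or Nppa, and its Nppa (146 CPM) was below that of both WT VEH hearts (192 and 169 CPM) and of 2 WT JZL184 hearts (148 and 220 CPM). By contrast, 20 genes were under 0.5 times. Among these were the inducible heat shock genes Hspa1a, at 7.68 CPM in mouse E against 37.3 and 65.3 CPM in mice A and C, and Hspa1b, at 5.52 against 32.1 and 66.2 CPM. WT JZL184 mouse D was lower still, with 6.85 CPM of Hspa1a and 4.01 CPM of Hspa1b. WT VEH mouse C, with 9.10 and 7.82 CPM, lay above mouse E and below CD VEH mice A and C. Haemoglobin genes were in this low group as well, since mouse A is the one with high red cell transcripts. The red cell markers of mouse E summed to 2032 CPM, place 9 of the 11 hearts.

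In 10 of the 11 hearts Hmox1 kept a narrow proportion to macrophage transcripts, and in mouse E it did not. All 10 listed macrophage markers (Cd68, Adgre1, Csf1r, Cd163, Mrc1, Lyve1, C1qa, C1qb, C1qc and Fcgr1) passed the filter. Their summed level was 194 to 200 CPM in WT VEH, 242 to 399 CPM in WT JZL184, 260 to 323 CPM in CD VEH and 173 to 196 CPM in CD JZL184. Set against this sum, Hmox1 amounted to between 2.40% and 3.95% in 10 hearts, with a median of 2.86%. In mouse E it amounted to 10.1%, although its macrophage sum of 323 CPM was below the 333 and 399 CPM of 2 WT JZL184 hearts. In bulk heart RNA, more cells of a type and more RNA per cell cannot be told apart, and the part of macrophages in the Hmox1 values was not tested.

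**Figure D3:**
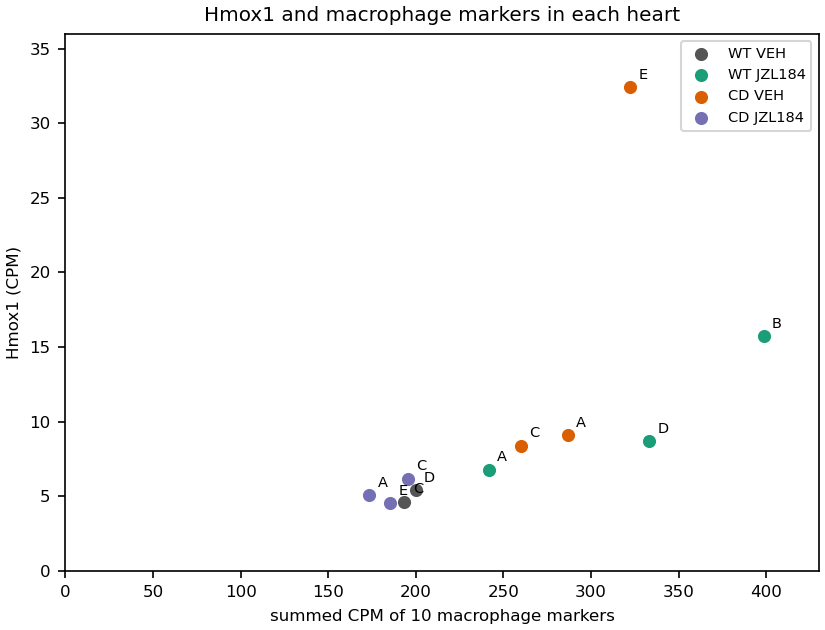
Hmox1 level (vertical axis, CPM) against the summed level of 10 macrophage markers (horizontal axis, CPM) in each of the 11 hearts, coloured by group and lettered by mouse. Mouse E of CD VEH, at 323 and 32.4 CPM, lies above the other 10 hearts, whose Hmox1 runs from 4.54 to 15.7 CPM over marker sums of 173 to 399 CPM.

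The genes whose level followed Hmox1 most closely differed with and without mouse E. Over all 11 hearts the highest Pearson correlations of log2 CPM were those of Fkbp1a (0.95), Atp1b3 (0.95), Ptpn12 (0.94), Bak1 (0.94), Nsmf (0.94), Col5a2 (0.93), Litaf (0.92), Rabif (0.92), Spindoc (0.92) and Dennd2a (0.92). Over the 10 hearts without mouse E they were those of Nadk (0.99), Coro1a (0.98), Tomm6 (0.98), Arpc1b (0.98), Gm2a (0.98), Arrb2 (0.98), Efhd2 (0.98), Wipf1 (0.98), Rab5c (0.97) and Gnb1 (0.97). Coro1a, Arpc1b and Wipf1 encode regulators of the actin skeleton that are strong in white blood cells. The rest of these 10 genes were not sorted by cell type. Among the members, Bach1 had the lowest correlation with Hmox1 over the 11 hearts, -0.84, which is place 11080 of the 11319 genes from the highest down. Without mouse E, Bach1 and Sod2 were both at -0.85, places 10264 and 10296. Correlations were -0.71 for Cat, -0.68 for Sod2, -0.50 for Nqo1, -0.47 for Txnrd1, 0.41 for Srxn1, 0.37 for Gclc, 0.14 for Nfe2l2 and 0.07 for Gclm over the 11 hearts. These are descriptions over hearts of 4 groups, and they share the group differences. A correlation above 0.8 was found for 4.33% of all tested genes over the 11 hearts and for 14.6% without mouse E.

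Compared per kilobase of merged exons, Cat was the most abundant member (57.9 CPM per kb), followed by Sod2 (37.1), Nqo1 (23.1) and Nfe2l2 (12.1). Srxn1 (7.11), Txnrd1 (5.64), Hmox1 (5.55) and Bach1 (4.63) were lower, and the subunits of glutathione synthesis, Gclc (2.92) and Gclm (2.33), were lowest. On this scale Hmox1 lay above Srxn1 and Nfe2l2 in mouse E and in no other heart.

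Bach1 (ENSMUSG00000025612, chromosome 16, 87698945 to 87733346), a repressor, was lower in CD VEH than in WT VEH or CD JZL184 hearts. It was 32.3 and 30.0 CPM in WT VEH, 28.1, 25.1 and 29.3 CPM in WT JZL184 mice A, B and D, 25.9, 24.9 and 24.2 CPM in CD VEH mice A, C and E, and 33.4, 29.7 and 31.5 CPM in CD JZL184 mice A, C and E. The CD VEH hearts lay below all WT VEH and all CD JZL184 hearts. Groups without overlap were common, with 64.0% of all tested genes between CD VEH and WT VEH, 54.6% between CD JZL184 and CD VEH, 54.7% between WT JZL184 and WT VEH and 47.9% between CD JZL184 and WT JZL184. In CD VEH, Bach1 fell by 0.32 on the log2 scale against WT VEH (SE 0.08, edgeR adjusted p = 0.0128), and leaving out WT VEH mouse C, which leaves 1 heart in that group, ended this call (-0.26). In CD JZL184 it rose by 0.33 against CD VEH (SE 0.07, edgeR adjusted p = 0.00568), and this held in all 13 alternatives. In WT JZL184 the difference from WT VEH was -0.18 (edgeR adjusted p = 0.102). The JZL184 effect therefore differed between CD and WT, by 0.51 on the log2 scale (SE 0.11, edgeR adjusted p = 0.00201), in all 17 alternatives. CD JZL184 against WT JZL184 gave 0.20 (edgeR adjusted p = 0.0442), a call that ended under upper-quartile scaling (0.17), with the compared groups alone (0.19), and without CD JZL184 mouse A (0.15) or E (0.20) or WT JZL184 mouse A (0.21) or B (0.14).

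Catalase followed the same order as Bach1. Cat (ENSMUSG00000027187, chromosome 2, 103453849 to 103485160) was 160 and 175 CPM in WT VEH, 135, 145 and 134 CPM in WT JZL184 mice A, B and D, 125, 150 and 124 CPM in CD VEH mice A, C and E, and 172, 178 and 166 CPM in CD JZL184 mice A, C and E. All CD VEH and WT JZL184 hearts lay below all WT VEH and CD JZL184 hearts, as they did for Bach1 and for 13.8% of all tested genes. The mitochondrial share of the libraries divides the hearts in the same way, in the opposite direction. Cat rose in CD JZL184 against CD VEH by 0.37 on the log2 scale (SE 0.08, edgeR adjusted p = 0.00613) and against WT JZL184 (0.32, SE 0.08, edgeR adjusted p = 0.00883), each in all 13 alternatives. It fell in CD VEH against WT VEH (-0.33, SE 0.09, edgeR adjusted p = 0.0181), a call that ended without CD VEH mouse A (-0.29) or E (-0.28), or WT VEH mouse C (-0.39) or D (-0.26). It also fell in WT JZL184 against WT VEH (-0.28, SE 0.09, edgeR adjusted p = 0.0345). That call ended under upper-quartile scaling (-0.24), with the compared groups alone (-0.26), and without WT JZL184 mouse A (-0.26) or D (-0.26) or WT VEH mouse C (-0.34) or D (-0.22). The JZL184 effect in CD minus that in WT was 0.65 (SE 0.12, edgeR adjusted p = 0.00108) and held in all 17 alternatives. With mitochondrial genes left out of the fit it was 0.66, and that of Bach1 was 0.52.

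Thioredoxin reductase divided the hearts in the same way, with all CD VEH and WT JZL184 hearts below the others. Txnrd1 was 43.3 and 44.2 CPM in WT VEH, 36.4, 37.1 and 37.2 CPM in WT JZL184 mice A, B and D, 33.9, 39.9 and 38.9 CPM in CD VEH mice A, C and E, and 42.2, 45.2 and 41.1 CPM in CD JZL184 mice A, C and E. Its JZL184 effect in CD minus that in WT was 0.44 (SE 0.10, edgeR adjusted p = 0.00364), past the threshold in all 17 alternatives. The single comparisons were close to the threshold. Txnrd1 fell in CD VEH against WT VEH (-0.22 on the log2 scale, edgeR adjusted p = 0.0410) and in WT JZL184 against WT VEH (-0.25, edgeR adjusted p = 0.0283). It rose in CD JZL184 against CD VEH (0.19, edgeR adjusted p = 0.0442) and against WT JZL184 (0.21, edgeR adjusted p = 0.0243). These calls were kept in 5 of 12, 6 of 12, 5 of 13 and 11 of 13 alternatives, in that order. The first 3 comparisons lost them under upper-quartile scaling (-0.18, -0.21 and 0.16) and with the compared groups alone (-0.22, -0.23 and 0.19). Both comparisons that involve CD VEH also lost them without a filter on low counts (-0.21 and 0.19). CD VEH against WT VEH lost it without CD VEH mouse A (-0.16) or E (-0.25) or either WT VEH mouse (-0.24 without C and -0.21 without D). WT JZL184 against WT VEH lost it without WT JZL184 mouse B (-0.25) or D (-0.25) or WT VEH mouse C (-0.26) or D (-0.23). CD JZL184 against CD VEH lost it without CD JZL184 mouse A (0.20), C (0.15) or E (0.22) or CD VEH mouse A (0.13) or E (0.22), and CD JZL184 against WT JZL184 lost it without CD JZL184 mouse A (0.23) or C (0.17).

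In the fit over all 11 mice, Sod2 passed the test for the difference between the JZL184 effects and for none of the 4 single comparisons. It was 404 CPM in both WT VEH hearts, 385, 319 and 334 CPM in WT JZL184 mice A, B and D, 344, 382 and 352 CPM in CD VEH mice A, C and E, and 389, 395 and 378 CPM in CD JZL184 mice A, C and E. The WT VEH hearts were above all others, and the WT JZL184, CD VEH and CD JZL184 hearts overlapped. Of all tested genes, 64.0% did not overlap between CD VEH and WT VEH hearts, and 54.7% between WT JZL184 and WT VEH hearts. The JZL184 effect in CD minus that in WT was 0.33 (SE 0.12, edgeR adjusted p = 0.0313), kept in 9 of 17 alternatives. It ended under upper-quartile scaling (0.27) and without CD JZL184 mouse A (0.33) or C (0.32), CD VEH mouse A (0.31) or E (0.32), WT JZL184 mouse D (0.31), or WT VEH mouse C (0.33) or D (0.34). The 4 single comparisons gave log2 fold changes from -0.22 to 0.16, with edgeR adjusted p from 0.0694 to 0.293. Of these, WT JZL184 against WT VEH passed with DESeq2 (-0.22, adjusted p = 0.0321) and without WT JZL184 mouse A (-0.30, edgeR adjusted p = 0.00776), and CD JZL184 against WT JZL184 passed without that mouse (0.25, edgeR adjusted p = 0.0113).

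NRF2 itself and sulfiredoxin were lower in CD JZL184 than in WT JZL184 hearts. Nfe2l2 was 44.9, 40.6 and 42.9 CPM in CD JZL184 mice A, C and E, and 51.03, 47.8 and 46.5 CPM in WT JZL184 mice A, B and D. The groups did not overlap, like those of 47.9% of all tested genes, and the log2 fold change was -0.18 (SE 0.06, edgeR adjusted p = 0.0345). It ended without a filter on low counts (-0.16), with at least 10 counts required in every mouse (-0.17), with the compared groups alone (-0.19), and without CD JZL184 mouse C (-0.14) or E (-0.18) or WT JZL184 mouse A (-0.14) or B (-0.19). Srxn1 was 17.2, 19.2 and 15.3 CPM in CD JZL184 and 21.7, 26.6 and 19.5 CPM in WT JZL184, also without overlap. Its log2 fold change was -0.39 (SE 0.12, edgeR adjusted p = 0.0258), and the call ended without CD JZL184 mouse A (-0.39) or E (-0.31) or WT JZL184 mouse B (-0.26). In the other comparisons Nfe2l2 ran from -0.11 to 0.02 and Srxn1 from -0.20 to 0.05 on the log2 scale, below the threshold.

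Nqo1 and both subunits of glutathione synthesis did not pass the edgeR test in any comparison of the fit over all 11 mice. Nqo1 ran from 30.3 to 39.9 CPM over the 11 hearts, Gclc from 8.77 to 11.9 CPM and Gclm from 12.6 to 16.4 CPM. Every CD JZL184 heart lay above every CD VEH heart in Nqo1 (means 38.5 and 33.6 CPM). Between these 2 groups 54.6% of all tested genes did not overlap. Every CD JZL184 heart lay below every WT JZL184 heart in Gclc (10.2 and 11.4 CPM), where 47.9% of all tested genes did not overlap. Gclm was 14.3 ± 1.36 CPM in WT VEH (SD, n = 2), 15.02 ± 2.07 in WT JZL184, 14.2 ± 0.725 in CD VEH and 15.04 ± 0.549 in CD JZL184 (SD, n = 3 each). For Gclc the lowest heart was CD JZL184 mouse E and the highest CD VEH mouse E. The JZL184 effect in CD minus that in WT was 0.28 for Nqo1 (edgeR adjusted p = 0.0939), -0.07 for Gclc (edgeR adjusted p = 0.694) and 0.01 for Gclm (edgeR adjusted p = 0.969). The smallest unadjusted p of the 3 genes was 0.0473, for Nqo1 in CD JZL184 against CD VEH (log2 fold change 0.20). Nqo1 passed there with the compared groups alone (0.19), and its JZL184 effects differed without WT JZL184 mouse B (0.35).

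**Figure D4:**
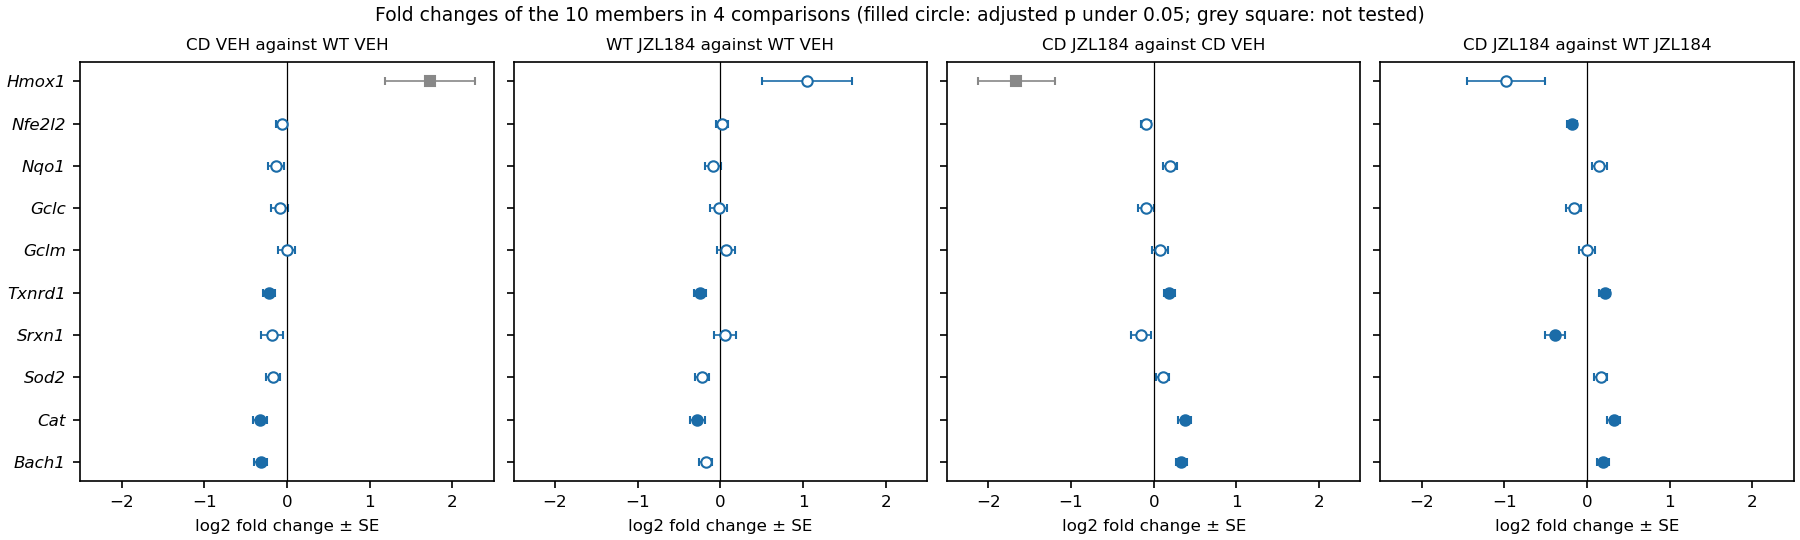
Log2 fold change ± SE (horizontal axis) of the 10 members in 4 comparisons from the fit over all 11 mice. Filled circles passed an adjusted p of 0.05, open circles did not, and grey squares are the Hmox1 values that involve the CD VEH mice and were not tested. Cat and Txnrd1 are filled in all 4 panels, to the left of 0 in the comparisons with WT VEH and to the right in those of CD JZL184.

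Counted together, the members were called about as often as other genes. In CD VEH against WT VEH, 3 of the 9 members tested were called, each of them lower (Cat, Bach1 and Txnrd1), where 15% of all tested genes were called higher and 15.4% lower, 30.4% in all. In CD JZL184 against CD VEH, these 3 of 9 were called, each of them higher, beside 16.8% of all genes called higher and 17% lower (33.8%). In WT JZL184 against WT VEH, 2 of 10 fell (Cat and Txnrd1), beside 15.4% of all genes called higher and 14% lower (29.4%). In CD JZL184 against WT JZL184, 3 of 10 rose (Cat, Txnrd1 and Bach1) and 2 fell (Srxn1 and Nfe2l2), beside 18.2% of all genes called higher and 20.1% lower (38.3%). For the difference between the JZL184 effects, 4 of 9 were called, each of them positive (Cat, Bach1, Txnrd1 and Sod2), beside 25.3% of all genes called positive and 26.2% negative (51.5%). The comparisons share groups of mice, so they are not independent of each other. DESeq2 on the same counts gave 4 of 9 for the last difference, beside 53.1% of all genes called in that fit.

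Members called with 1 mouse left out are given with the share of all tested genes called in the same fit in brackets. In CD VEH against WT VEH they numbered 1 without CD VEH mouse A (17%), CD VEH mouse E (17.5%) or WT VEH mouse D (10.7%), and 0 without WT VEH mouse C (3.4%). In WT JZL184 against WT VEH they numbered 1 without WT JZL184 mouse B (18.5%) and 0 without WT JZL184 mouse D (25.6%) or WT VEH mouse C (4.93%) or D (9.09%). In CD JZL184 against WT JZL184 they numbered 2 without CD JZL184 mouse A (27.7%) or E (26.1%) or WT JZL184 mouse B (29%), and 3 without CD JZL184 mouse C (31.6%).

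Blvra and Blvrb, the biliverdin reductases, were higher in every WT JZL184 and CD VEH heart than in any WT VEH or CD JZL184 heart, as were 14.4% of all tested genes. Of 16 genes of haem and iron handling, 12 passed the test for the difference between the JZL184 effects, 7 negative and 5 positive, beside 26.2% of all tested genes called negative and 25.3% positive. The median of the 16 was -0.15, beside -0.01 for all genes. Ftl1 had the most negative value, -1.13 (SE 0.19, edgeR adjusted p = 0.000697), and its mean was 206 ± 17.9 CPM in WT VEH (n = 2), 316 ± 66.0 in WT JZL184, 282 ± 24.3 in CD VEH and 199 ± 7.56 in CD JZL184 (SD, n = 3 each). Blvrb gave -1.01 (edgeR adjusted p = 0.000705), Abcg2, a haem and drug exporter, -0.77 (edgeR adjusted p = 0.00039) and Blvra -0.61 (edgeR adjusted p = 0.000872). Alas1, the first enzyme of haem synthesis, ran the other way, with 0.70 (edgeR adjusted p = 0.00108) and means of 147 ± 5.47 CPM in WT VEH, 107 ± 11.6 in WT JZL184, 108 ± 10.1 in CD VEH and 128 ± 4.18 in CD JZL184. These 5 values held in all 17 alternatives. The constitutive haem oxygenase gene Hmox2 varied less, from 39.2 to 50.001 CPM, with a difference of -0.27 (edgeR adjusted p = 0.0484). That call was kept in 5 of 17 alternatives (-0.34 to -0.19, highest edgeR adjusted p 0.159). It ended without a filter on low counts, with at least 10 counts in every mouse, without mitochondrial genes, and without any 1 mouse other than CD VEH mouse C and WT JZL184 mouse D. Slc48a1, a haem transporter, gave -0.39 (edgeR adjusted p = 0.0057) and passed the test in all 17 alternatives, with values from -0.46 to -0.33. The ferritin heavy chain gene Fth1 gave -0.50 (edgeR adjusted p = 0.0291), and its call ended without CD JZL184 mouse A or E, CD VEH mouse A or E, or either WT VEH mouse, with values from -0.59 to -0.33 over the alternatives. Ferritin genes have many processed copies in the genome, so their estimated counts are uncertain.

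**Figure D5:**
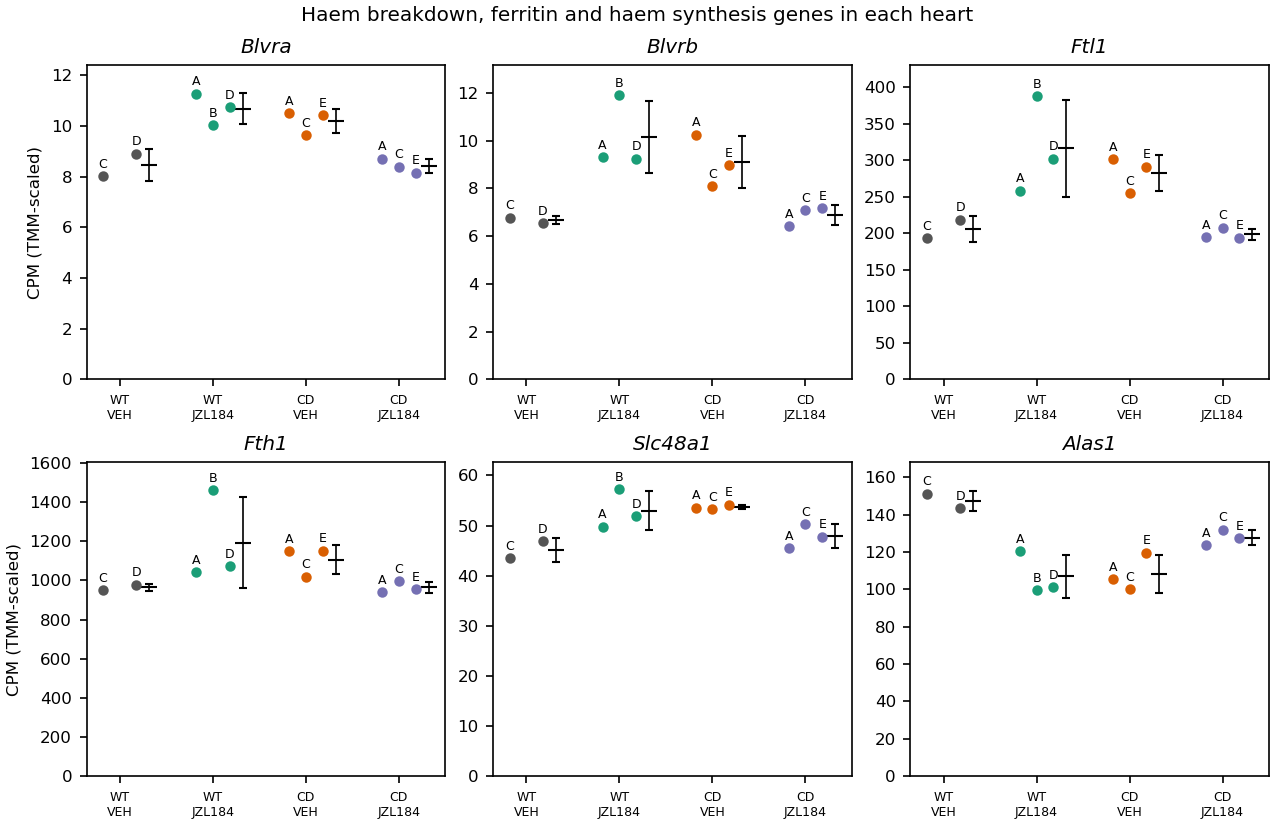
Level (CPM after TMM scaling, vertical axes from 0) of 6 genes of haem and iron handling in each heart, 1 lettered point per mouse, with group means ± SD in black. In the panels of Blvra and Blvrb all CD VEH and WT JZL184 hearts lie above all WT VEH and CD JZL184 hearts, and in that of Alas1 the WT VEH hearts, at 143 and 151 CPM, lie above the rest.

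Among 11 genes of NRF2 control, the test for the same difference gave 5 positive and 3 negative calls, 8 of 11 beside 51.5% of all tested genes. The positive ones were led by Gsk3b (0.82, edgeR adjusted p = 0.000415) and Cul3 (0.68, edgeR adjusted p = 0.000303), a kinase and a ubiquitin ligase scaffold that both serve the destruction of NRF2. Nfe2l1, a relative of NRF2, gave 0.43 (edgeR adjusted p = 0.00411). Maff, a small partner protein of NRF2 and BACH1, gave -1.10 (edgeR adjusted p = 0.00121). Its level in CD VEH ran from 5.82 to 8.88 CPM and in CD JZL184 from 4.32 to 5.16 CPM. Keap1, the sensor that holds NRF2 back, missed the threshold in all 5 tests (edgeR adjusted p from 0.104 to 0.984).

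Of 13 tested genes of glutathione synthesis and use, 6 were negative and 1 positive for the difference between the JZL184 effects, 7 of 13 beside 51.5% of all tested genes. Gpx1 gave -1.28 (edgeR adjusted p = 0.00336), Gpx7 -0.89, Gpx4 -0.70 and Gpx8 -0.68 (highest edgeR adjusted p of these 3, 0.0033). The single positive gene was the glutaredoxin Glrx2 (0.30, edgeR adjusted p = 0.0126). The peroxidases remove peroxides with glutathione, whereas Gclc and Gclm, which supply it, were not called. Of 16 tested glutathione transferases 8 were negative and 2 positive (51.5% of all genes called), led by Gstt2 (-1.48, edgeR adjusted p = 0.00355) and Gsta3 (-1.21, edgeR adjusted p = 0.000122). Gsta3 was highest in the 3 WT JZL184 hearts, with 9.44 to 9.76 CPM against 4.31 to 6.01 CPM in the other 8. Mgst1, a microsomal transferase, was highest there too, with 27.1 to 38.4 CPM against 16.4 to 24.0 CPM. Of all tested genes, 54.7% did not overlap between WT JZL184 and WT VEH hearts, and 47.9% between CD JZL184 and WT JZL184 hearts. Gsta3 rose in WT JZL184 against WT VEH by a log2 fold change of 0.95 (edgeR adjusted p = 0.00058), in all 12 alternatives. The transferases are a family of near copies, so reads may be split between them.

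In the thioredoxin and peroxiredoxin list, 4 of 18 genes were positive and 3 negative, 7 of 18 beside 51.5% of all tested genes. Msrb3, a methionine sulfoxide reductase, gave 0.71 (edgeR adjusted p = 0.000258) and Sesn3 0.68 (edgeR adjusted p = 0.0101). Prdx4, the peroxiredoxin of the endoplasmic reticulum, gave -0.84 (edgeR adjusted p = 0.000252) and thioredoxin, Txn1, -0.56 (edgeR adjusted p = 0.00316). Of 6 genes of superoxide and metal detoxification, 2 were negative, beside 26.2% of all tested genes. Sod1 gave -0.32 (edgeR adjusted p = 0.0121), opposite in sign to Sod2. Mt2 gave -2.12 (edgeR adjusted p = 0.0352), which rested on single hearts, since its level ran from 3.37 to 29.0 CPM and the call ended without WT JZL184 mouse B (29.0 CPM). Mt2 also lost its call without CD JZL184 mouse A or E, CD VEH mouse A or C, or WT VEH mouse C, and ran from -2.73 to -1.18 over the alternatives.

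Of 13 tested genes of NADPH supply and of quinone or carbonyl reduction, 4 were negative and 2 positive, 6 of 13 beside 51.5% of all tested genes. Ephx1, microsomal epoxide hydrolase, gave -1.25 (edgeR adjusted p = 0.000715), G6pdx and Tkt of the pentose phosphate pathway -1.03 (edgeR adjusted p = 0.000483) and -0.92 (edgeR adjusted p = 0.000244). Nnt, the mitochondrial transhydrogenase that makes NADPH, gave 0.95 (edgeR adjusted p = 0.000277). It stood at 394 ± 3.55 CPM in WT VEH (n = 2), 291 ± 25.5 in WT JZL184, 293 ± 32.5 in CD VEH and 419 ± 15.98 in CD JZL184 (SD, n = 3 each). C57BL/6J mice are known to carry a deletion within Nnt that prevents a working protein, and gene-level counts do not show which exons were read.

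All 6 tested genes of NADPH oxidase and other oxidant sources were negative for the difference between the JZL184 effects, beside 26.2% of all tested genes, with a median of -0.96. Rac2 gave -1.38 (edgeR adjusted p = 0.00192), Ncf1 -1.06 (edgeR adjusted p = 0.0162) and Cybb -0.87 (edgeR adjusted p = 0.00436). They are subunits of the phagocyte oxidase and belong to macrophages and neutrophils. Ncf1 (chromosome 5, 134220053 to 134229625) lies beside Gtf2i (134237834 to 134314760), at the edge of the deleted interval, and its call ended without WT VEH mouse C (highest edgeR adjusted p 0.072). The macrophage markers moved the same way, with all 10 of 10 negative for this difference and a median of -1.40. So did the listed endothelial (5 of 6), fibroblast (4 of 6) and smooth muscle (3 of 3) markers, beside the same 26.2% of all tested genes. The red cell markers (5 of 5, median -2.94) and the 1 tested platelet marker, Pf4 (-1.93), were negative as well. The summed red cell level was 2035 to 2495 CPM in WT VEH, 2644 to 5513 in WT JZL184 and 1419 to 2195 in CD JZL184. In CD VEH it was 18841 CPM in mouse A, 2886 in mouse C and 2032 in mouse E. The cardiomyocyte list gave 3 positive (Ryr2, Myh6 and Actc1) and 1 negative gene (Myl2) of 6, beside 51.5% of all tested genes called. Its summed level was 37376 to 38665 CPM in WT VEH, 27742 to 36898 in WT JZL184, 32381 to 35074 in CD VEH and 36344 to 37830 in CD JZL184. The part of these cell types in the values of the antioxidant genes was not tested.

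Over the 99 tested genes beyond the members, 21 rose and 9 fell in CD VEH against WT VEH, where 30.4% of all tested genes were called. In CD JZL184 against CD VEH 12 rose and 23 fell (33.8% of all genes called), in WT JZL184 against WT VEH 26 rose and 10 fell (29.4%), and in CD JZL184 against WT JZL184 16 rose and 30 fell (38.3%). For the difference between the JZL184 effects 19 were positive and 39 negative, a share of 58 in 99, beside 51.5% of all tested genes called. Single mice weighed on the counts that include the vehicle groups. Calls over all tested genes fell in the same fits, and their share is given in brackets. The 30 of CD VEH against WT VEH became 17 without CD VEH mouse A (17%), 16 without mouse E (17.5%), 10 without WT VEH mouse D (10.7%) and 1 without WT VEH mouse C (3.4%). The 36 of WT JZL184 against WT VEH became 13 without WT VEH mouse D (9.09%) and 3 without mouse C (4.93%). The 35 of CD JZL184 against CD VEH became 20 without CD JZL184 mouse A (21.6%), 17 without CD JZL184 mouse E (19%), 16 without CD VEH mouse A (18.5%) and 17 without CD VEH mouse E (18%). The count for the difference between the JZL184 effects stayed between 43 and 62 whichever mouse was left out (40.4% to 56.5%).

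Heat shock and immediate early genes were followed because Hmox1 is itself stress inducible. Of 6 heat shock genes, 1 rose in CD VEH against WT VEH, where 15% of all tested genes did, the co-chaperone gene Dnajb1 (0.84 on the log2 scale, edgeR adjusted p = 0.0222). The summed level of the 6 was 1812 CPM in mouse E, place 3 of the 11 hearts. Hspa8 alone made up 1572 CPM of it. The place therefore says little of Hspa1a and Hspa1b, which were at 7.68 and 5.52 CPM in mouse E. Of 7 tested immediate early genes, 3 rose in CD VEH against WT VEH (Junb, Ier2 and Jun), beside the same 15% of all tested genes. The summed level of all 8 listed immediate early genes, the untested 1 included, was 118 to 171 CPM in CD VEH, above the 86.2 to 111 CPM of WT VEH. It was highest in CD VEH mouse A, and mouse E, with 128 CPM, took place 2.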

How the data were processed

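RNA of 11 mouse hearts was sequenced. Per the labels and the methods of the study, the authors ran Salmon 0.7.2 against transcripts of GRCm38 (mm10), summed the estimates to genes, and deposited expected counts without normalization. Columns of the table that could not be given a group numbered 0. Gene symbols and exons came from GENCODE mouse release 21, matched by identifier without version for 22315 of 22608 genes.

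Estimated counts were rounded and tested with edgeR 4.0.16 (quasi-likelihood, TMM scaling, R 4.3.3) in 1 model with a term per group over all 11 mice, over genes whose average log2 CPM reached 1. P-values were adjusted over the 11319 tested genes by Benjamini-Hochberg, with a threshold of 0.05. Of changed genes simulated for CD VEH against WT VEH on these 11319 genes, 99.1% were recovered at a log2 change of 1 and 57.6% at 0.5, with 1.84% false calls. The common biological coefficient of variation was 9.13%. A floor of 3 counts corresponds to between 0.0306 and 0.0435 CPM, by library, and covers counting error only.

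Alternatives were DESeq2 1.42.0, RLE and upper-quartile scaling, leaving low-count genes in, a minimum of 10 counts in each mouse, no mitochondrial genes, the compared groups alone, and each mouse left out. Members and gene lists were chosen with earlier results of these data known. Genes named were the 10 members, up to 4 called genes with the largest change per list (with Hmox2, Mgst1, Fth1, Slc48a1, Keap1, Glrx2, Mt1, Prdx1, Txn2, Tfrc, Cish, Nppa and the heat shock, immediate early and marker genes added after their values were seen), the 10 genes most correlated with Hmox1, and the 10 highest in CD VEH mouse E. A gene that this rule names is not reported here. P-values rest on biological spread between mice as far as the labels show. Motifs were searched in RefSeq start windows of GRCm38.p6.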

Additional observations from a re-analysis of the deposited data

Results flagged for a closer look

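The JZL184 effect differed between CD and WT hearts, by a test of the difference itself in edgeR, for 4 members. On the log2 scale the effect in CD minus the effect in WT was 0.65 for Cat, 0.51 for Bach1, 0.44 for Txnrd1 and 0.33 for Sod2. Cat, Bach1 and Txnrd1 kept this call in all 17 alternatives, and Sod2 in 9 of 17. With 51.5% of all tested genes called for this difference, 4 of 9 tested members is no larger a share than that of genes in general.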

How the results depend on the processing

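No paired analysis was possible because the columns of the table carry none of the replicate numbers of the labels. Of the log2 fold changes of members under an alternative, 578 counted as unchanged. For tested values this means the same direction and the same side of the threshold. For Hmox1 where it was not tested, it means the same direction and a move smaller than the standard error. A further 58 fell short of the threshold, 6 newly passed it, and 3 (Hmox1, not tested) moved by more than their standard error. Another 25 turned, none of them past the threshold in the fit as reported. The turned values were small. Upper-quartile scaling gave 0.037 for Gclm in CD VEH against WT VEH, 0.018 for Gclc in WT JZL184 against WT VEH, -0.024 for Gclm in CD JZL184 against WT JZL184 and -0.061 for the Gclm difference between JZL184 effects. Gclm gave 0.001164 in CD VEH against WT VEH without a filter on low counts and -0.00566 in CD JZL184 against WT JZL184 with these groups alone.

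With 1 mouse left out, Gclm ran from -0.099 to 0.095 in CD VEH against WT VEH, from -0.022 to 0.18 in WT JZL184 against WT VEH, from -0.11 to 0.072 in CD JZL184 against WT JZL184 and from -0.099 to 0.10 for the difference between JZL184 effects. Gclc ran from -0.17 to 0.005164 in CD JZL184 against CD VEH and from -0.15 to 0.027 for the difference. In WT JZL184 against WT VEH, Nfe2l2 ran from -0.029 to 0.068, Srxn1 from -0.077 to 0.17 and Nqo1 from -0.19 to 0.026. Hmox1 ran from 0.79 to 2.04 in CD VEH against WT VEH, from -1.97 to -0.72 in CD JZL184 against CD VEH and from -3.02 to -1.77 for the difference (-2.70 with all mice), each time nearest to 0 without CD VEH mouse E. Leaving out 1 WT VEH mouse leaves 1 in that group, which is then assumed to vary like the other groups.

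Members called in WT JZL184 against WT VEH numbered 0 under upper-quartile scaling (28.7% of all tested genes called in that fit) and 0 with these groups alone (14.6%). With 1 mouse left out they ran from 0 to 2 there, from 0 to 3 in CD VEH against WT VEH, from 2 to 3 in CD JZL184 against CD VEH, from 2 to 5 in CD JZL184 against WT JZL184 and from 3 to 5 for the difference between JZL184 effects. The further antioxidant genes called ran from 1 to 30 in CD VEH against WT VEH, from 3 to 44 in WT JZL184 against WT VEH, from 16 to 34 in CD JZL184 against CD VEH and from 31 to 54 in CD JZL184 against WT JZL184. Over the same fits all tested genes were called at 3.4% to 31.2% in CD VEH against WT VEH, 4.93% to 39.6% in WT JZL184 against WT VEH, 18% to 34.5% in CD JZL184 against CD VEH, 26.1% to 43% in CD JZL184 against WT JZL184 and 40.4% to 56.5% for the difference between JZL184 effects. CD VEH mouse E was the highest heart in 1 member with library totals in place of TMM scaling. The cause of these changes was not tested. With 2 or 3 mice per group, small changes can be missed. In the simulated counts for CD VEH against WT VEH, 57.6% of changes of 0.5 on the log2 scale were found. Smaller changes and the other comparisons were not simulated. The simulation gave all genes 1 common spread and changed 200 of 11319 genes, so its recovery need not be that of these data.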
